A study of Drosophila melanogaster with 53 samples.

Results

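The small heat shock proteins of Drosophila melanogaster examined here are encoded by 7 genes, Hsp22 (FBgn0001223), Hsp23 (FBgn0001224), Hsp26 (FBgn0001225), Hsp27 (FBgn0001226), Hsp67Ba (FBgn0001227), Hsp67Bc (FBgn0001229) and l(2)efl (FBgn0011296). They were chosen by name, and all 7 were found among the 15222 genes of the deposited table. Polyadenylated RNA of whole adult males was sequenced after exposure at an age of 2 days to 10, 1000, 5000, 10000 or 20000 R (roentgen, a unit of exposure to X-rays or gamma rays), and from unirradiated males called control. Flies were frozen 2, 10 or 20 days after irradiation, and the labels name no strain or mutation. There were 53 libraries in 18 combinations of dose and day, 2 for control day 20 and 3 for each of the others, which are called a, b and c in the column order of the table. The labels do not say whether the libraries of a group came from separate cultures, and the p-values therefore reflect only how far these samples scatter, which may be technical variation.

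Small heat shock proteins share the alpha-crystallin domain and form large oligomers that bind unfolding proteins without using ATP and hand them to ATP-dependent chaperones such as Hsp70. In the fly, Hsp22 resides in the mitochondrial matrix, Hsp23 and Hsp26 in the cytosol, and Hsp27 mainly in the nucleus, and all of them are induced by heat through the heat shock factor Hsf. Several are also made without stress: Hsp23, Hsp26 and Hsp27 are known to be expressed in the gonads, and Hsp22 is known for its increase in ageing flies. Hsp67Bc is a relative of the mammalian autophagy co-factor HSPB8, and l(2)efl is a small heat shock protein of muscle and other tissues.

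Of the 7 genes, 6 lie on chromosome arm 3L in a run of 9 neighbouring genes spanning 14.2 kb, the locus known as 67B, and l(2)efl lies on 2R. The other genes of the run are CG4456, CG4461 and the antisense RNA CR43481. All 1900 annotated exonic bases of Hsp22 are shared with CG4456, and the deposited values of both genes were identical in 44 of the 53 libraries, so reads of Hsp22 and CG4456 cannot be told apart here. Of the 1733 exonic bases of Hsp67Ba, 1316 overlap the antisense RNA, and whether the counting used strand is not given in the sources used here.

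Values are normalized counts, that is, the reads of a gene scaled by the size factor of its library. The libraries held 15.4 M to 46.2 M recovered reads (median 23.3 M), and 11213 to 14553 genes had a value above 0. In 9 libraries that an earlier analysis of these data had set apart, 12.8% to 43.5% of the tested genes (median 28.5%) lay more than 1 log2 unit from the mean of the other libraries of their group, against 1.5% to 48.5% (median 8.64%) in the other 44 libraries, which include the partners of those 9. At day 2 these are libraries b and c of 10 R, at day 10 they are a and c of 10 R, c of 10000 R and a of 20000 R, and at day 20 they are control b, c of 10 R and c of 5000 R. The female yolk protein gene Yp1 reached 116245 in library c of 10000 R at day 10 and 89258 in library a of 10 R at day 10, against a median of 187 over all libraries, which goes against the label of males for those 2 libraries. Values without these libraries are given beside many of the results that they change. The 9 were chosen from these same data, so leaving them out lowers the spread within groups and can make adjusted p too small. Control day 20, 10 R day 2 and 10 R day 10 then keep 1 library each, on which comparisons with those groups rest. The 20 markers of spermatocytes and spermatids summed to 543 to 2145 in the libraries of 10000 and 20000 R at days 10 and 20, against 86416 to 103190 in controls of those days. At day 2 the same sum was 105439 to 127801 at 10000 and 20000 R, against 124131 to 127289 in controls. In whole flies, fewer cells of a type and less RNA per cell cannot be told apart.

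In unirradiated flies at day 2 the family spanned a wide range of levels, compared here per kilobase of annotated exon. l(2)efl had the highest level at 2784 normalized counts per kb, followed by Hsp26 at 1786, Hsp27 at 1751, Hsp23 at 885, Hsp22 at 555, Hsp67Ba at 194 and Hsp67Bc at 35.3. Over the 18 groups the group mean varied least for l(2)efl, 2.13 times between the highest and the lowest group, and most for Hsp27, 29.4 times.

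Hsp23, Hsp26 and Hsp27 were far lower at 10000 and 20000 R than in controls 10 and 20 days after irradiation, and none of the 3 passed the test at those days after 10, 1000 or 5000 R. Each difference was tested with limma on log2(normalized count + 1) over 12475 genes, and a gene is said to have risen or fallen where the Benjamini-Hochberg adjusted p over those genes is under 0.05. Where the libraries of groups are said below not to overlap, the share of all genes that separate likewise was not counted. Over the 3 days together, 3 of 7 members (Hsp23, Hsp26, Hsp27) fell and 1 of 7 (Hsp22) rose at 20000 R, where 20.7% of all genes tested fell and 7.72% rose. At 10000 R the same 3 fell and the same gene rose, beside 21.2% of all genes that fell and 6.42% that rose. The median log2 fold change was 0.23 over the members and 0.08 over all genes at 20000 R, and 0.02 over the members and 0.06 over all genes at 10000 R.

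Hsp27 changed most. At day 10 it had 402, 90.3 and 152 normalized counts in 20000 R libraries a, b and c, against 3360, 2429 and 2534 in control libraries. At 10000 R on that day it had 246, 189 and 1703. All of these irradiated libraries lay below every control, and library c of 10000 R, one of the 2 high in Yp1, lay far above a and b. At day 20 Hsp27 had 202, 168 and 120 at 20000 R and 151, 150 and 169 at 10000 R, against 2665 and 2272 in control libraries a and b, with no overlap. The log2 fold change at day 20 was -3.94 ± 0.56 (SE; adjusted p = 3.39e-07 in limma) at 20000 R and -3.97 ± 0.56 (adjusted p = 3.11e-07) at 10000 R, a level 15.6 times lower. At day 10 it was -3.95 ± 0.50 (adjusted p = 2.59e-08) at 20000 R and -2.67 ± 0.50 (adjusted p = 4.36e-05) at 10000 R, and without the libraries set apart it was -4.54 at 20000 R (without a) and -3.66 at 10000 R (without c).

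**Figure D1:**
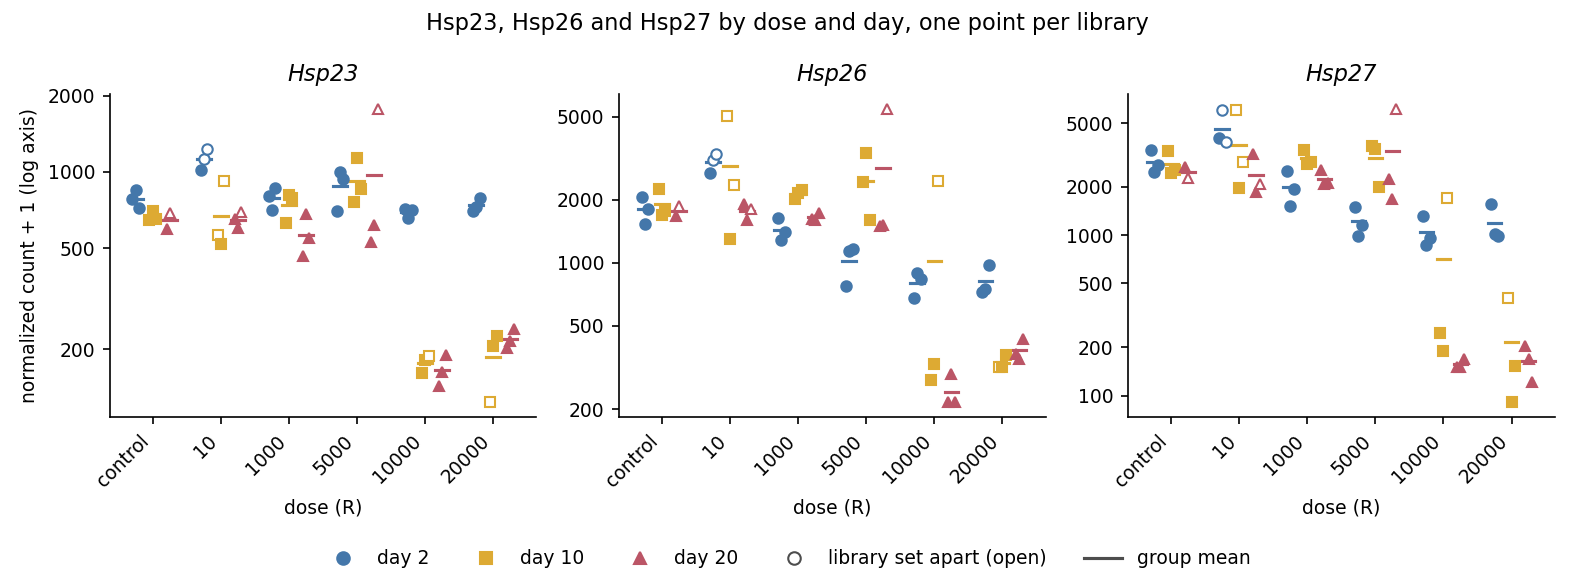
Normalized counts of Hsp23, Hsp26 and Hsp27 (plus 1, log axis) against dose in roentgen, one point per library, coloured by day, with the group mean as a bar and the 9 libraries set apart as open points. At 10000 and 20000 R the libraries of days 10 and 20 are the lowest in each panel, except 10000 R day 10 c at 2448 for Hsp26 and 1703 for Hsp27, and the day 2 points of Hsp26 and Hsp27, but not of Hsp23, are already lower than in controls at 5000, 10000 and 20000 R.

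Hsp26 followed the same course. At day 20 it had 367, 347 and 432 normalized counts in 20000 R libraries a, b and c and 215, 294 and 215 in 10000 R libraries, against 1670 and 1865 in controls. At day 10 it had 315, 316 and 361 at 20000 R, against 2259, 1689 and 1770 in controls. Irradiated and control libraries did not overlap in these comparisons. The log2 fold changes at 20000 R were -2.21 ± 0.52 (SE; adjusted p = 0.000929 in limma) at day 20 and -2.51 ± 0.46 (adjusted p = 2.96e-05) at day 10, and that at 10000 R was -2.88 ± 0.52 (adjusted p = 2.28e-05) at day 20. The 10000 R libraries of day 10 disagreed among themselves, with 275 and 328 in a and b and 2448 in c, which lay above all 3 controls. In library c the summed ovary markers other than the yolk proteins stood at 2753, above the 269 and 361 of libraries a and b. The same sum was 4801 to 5473 in the day 10 controls, which are males, so it does not measure ovary tissue alone. It includes orb, which had a mean of 4098 over all libraries and fell at 20000 R over days. The other library high in Yp1, 10 R day 10 a, had 5029 for Hsp26, against 1300 and 2354 in 10 R day 10 b and c. For Hsp27 it had 6032, against 1964 and 2871. Its sum of ovary markers other than the yolk proteins was 68043, against 4399 and 3602. How far ovary transcripts entered the values of these 2 libraries was not tested. The fall at 10000 R and day 10 (-1.64 ± 0.46, adjusted p = 0.00607) grew to -2.65 without library c and was not past the threshold without library a (-1.08, adjusted p = 0.122), without library b (-1.20, adjusted p = 0.0951), in edgeR (-0.83, adjusted p = 0.235), in DESeq2 (-0.90, adjusted p = 0.168) or in a fit of the day 10 libraries alone (adjusted p = 0.0744).

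Hsp23 fell by a smaller factor but with little spread between libraries. At day 10 it had 123, 206 and 225 normalized counts in 20000 R libraries and 160, 180 and 187 in 10000 R libraries, against 648, 697 and 650 in controls. At day 20 it had 201.05, 213 and 240 at 20000 R and 142, 161 and 189 at 10000 R, against 597 and 688 in controls. Every library at these doses lay below every control of its day. The log2 fold change was -1.89 ± 0.26 (SE; adjusted p = 1.19e-07 in limma) at day 10 and -1.56 ± 0.29 (adjusted p = 3.99e-05) at day 20 for 20000 R. For 10000 R it was -1.92 ± 0.26 (adjusted p = 8.58e-08) and -1.97 ± 0.29 (adjusted p = 6.23e-07). The library 10000 R day 10 c, which was high in Yp1 and in Hsp26 and Hsp27, had an Hsp23 value of 187, close to its partners.

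Counted by day, 3 of 7 members fell and 0 of 7 rose at day 10 at 20000 R, beside 18.7% and 2.72% of all genes, and likewise 3 and 0 of 7 at 10000 R, beside 19.9% and 2.21%. For these 0 counts of rises, no member rose in edgeR or DESeq2 either, and Hsp22 at 20000 R had an unadjusted p of 0.0119. At day 20, 3 of 7 fell and 3 of 7 rose at 20000 R, beside 16.9% and 5.6% of all genes, and 3 fell and 2 rose at 10000 R, beside 16.7% and 4.44%. The rises at day 20 were those of Hsp22 and those of Hsp67Ba and Hsp67Bc, which rest on 1 control library.

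**Figure D2:**
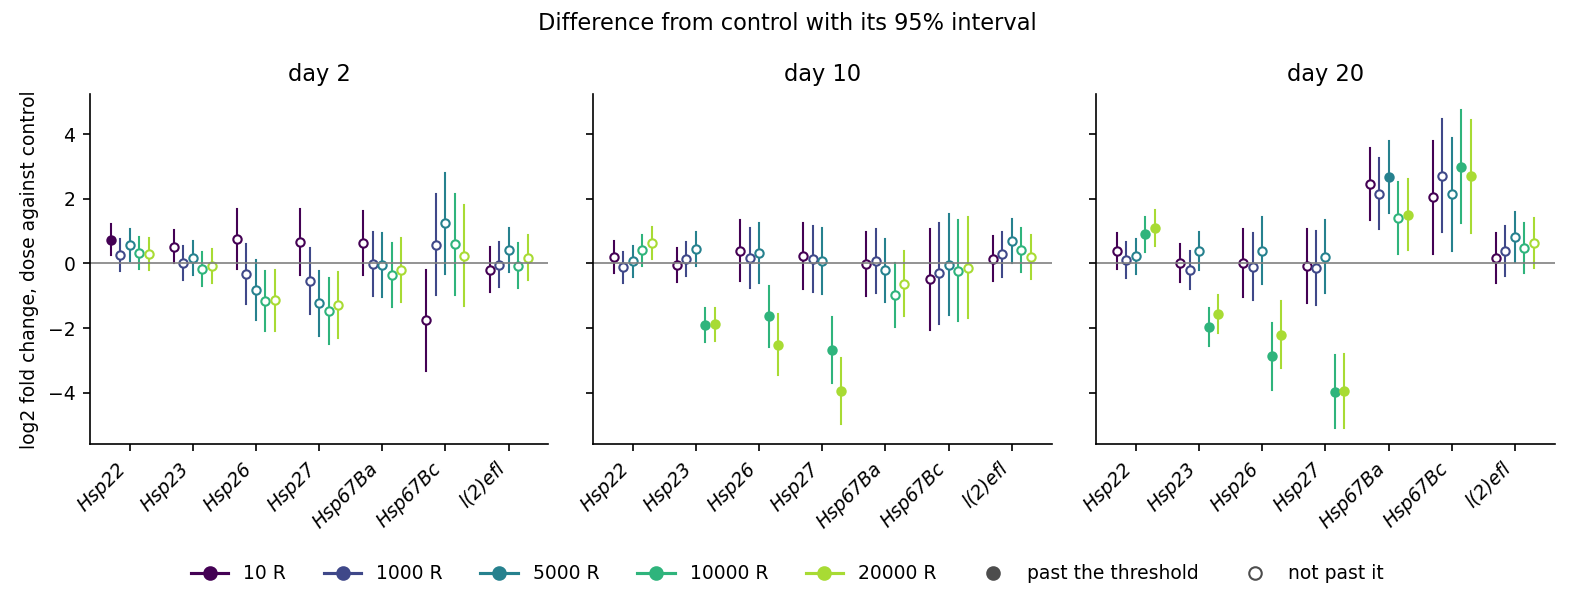
Log2 fold change of each of the 7 genes against control of the same day (vertical axis) with its 95% interval, for 5 doses in colour, with a panel per day and filled points past the threshold. Hsp23, Hsp26 and Hsp27 have filled points below 0 at 10000 and 20000 R on days 10 and 20, and the filled points of Hsp67Ba and Hsp67Bc above 0 appear at day 20, where control library b decides the level.

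At day 2, Hsp26 and Hsp27 already lay below controls at 5000, 10000 and 20000 R, and Hsp23 did not. Hsp26 had 2060.0, 1537 and 1815 normalized counts in controls, 771, 1139 and 1160.0 at 5000 R, 678, 896 and 834 at 10000 R and 722, 752 and 974 at 20000 R. Hsp27 had 3374, 2464 and 2736 in controls, 1501, 985 and 1163 at 5000 R, 1316, 872 and 953 at 10000 R and 1566, 1019 and 992 at 20000 R. All 9 irradiated libraries lay below all 3 controls for both genes. With 3 libraries in each group such separation can arise by scatter, and its share over all genes was not counted. Hsp23 overlapped controls, with 703, 724 and 787 at 20000 R against 779, 847 and 721 in controls.

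None of these day 2 differences passed the threshold over all genes. The log2 fold changes of Hsp26 were -0.83, -1.17 and -1.15 at 5000, 10000 and 20000 R (each ± 0.46, SE), with adjusted p of 0.519, 1 and 1 in limma. Those of Hsp27 were -1.24, -1.46 and -1.28 (each ± 0.50), with adjusted p of 0.302, 0.797 and 0.976. At day 2, 0 of 7 members passed at each of the 3 doses in limma, edgeR and DESeq2, and 2 of 7 had an unadjusted p under 0.05 at each. At 10000 and 20000 R these were Hsp26 and Hsp27. At 5000 R they were Hsp27 and Hsp22, the value of which was higher than in controls (0.57 ± 0.24), and not Hsp26. Few genes of the genome passed at that day, 0.449% at 5000 R, 0.0962% at 10000 R and 0.16% at 20000 R. Without the 9 libraries set apart, none of which is a control, 5000, 10000 or 20000 R library of day 2, the fold changes are the same but the spread shared by all groups is smaller. In that fit Hsp26 fell at 5000, 10000 and 20000 R (adjusted p = 0.0125, 0.00172 and 0.000808) and so did Hsp27 (adjusted p = 0.00506, 0.00236 and 0.00538). The 9 were set apart in these same data, and leaving them out lowered the spread within groups. The residual SD on the log2 scale went from 0.58 to 0.24 for Hsp26 and from 0.64 to 0.32 for Hsp27. The adjusted p of that fit may thus be too small. With the day 2 libraries alone, Hsp26 fell at 10000 R (adjusted p = 0.0327) and 20000 R (adjusted p = 0.0186).

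At 5000 R, Hsp26 and Hsp27 stood higher at day 10 than at day 2. Hsp27 had 3599, 3427 and 1999 normalized counts at 5000 R on day 10, against 1501, 985 and 1163 at 5000 R on day 2. Hsp26 had 2432, 3361 and 1595 on day 10, against 771, 1139 and 1160.0 on day 2. At day 20 library c of 5000 R, one of the 9, stood at 6141 for Hsp27 and 5449 for Hsp26, against 2247 and 1676 for Hsp27 and 1497 and 1517 for Hsp26 in libraries a and b. The spermatocyte and spermatid marker sum of that library was 140226, against 64213 and 69585 in a and b. Its part in these values was not tested. All day 10 libraries of 5000 R lay above all day 2 libraries for both genes, and they overlapped the day 10 controls. The log2 change was 1.28 ± 0.50 (SE; adjusted p = 0.134 in limma) for Hsp27 and 1.23 ± 0.46 (adjusted p = 0.111) for Hsp26, and it passed without the 9 libraries (adjusted p = 0.000404 and 2.28e-05) and without the 2 libraries high in Yp1 (adjusted p = 0.0247 and 0.00476). In the fit of all libraries, 1 of 7 members (Hsp22) rose between those days at 5000 R, beside 3.2% of all genes, and that call was lost without 5000 R day 2 a, b or c or without 5000 R day 10 b or c (adjusted p up to 0.191).

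At 20000 R, 3 of 7 members (Hsp23, Hsp26, Hsp27) fell at day 10 against day 2, beside 20.2% of all genes, and at 10000 R 1 of 7 (Hsp23), beside 21.8%. Hsp23 fell by 2.04 ± 0.26 on the log2 scale (SE; adjusted p = 2.15e-08 in limma) at 20000 R and by 1.98 ± 0.26 (adjusted p = 4.05e-08) at 10000 R, and Hsp27 fell by 2.71 ± 0.50 (adjusted p = 3.37e-05) at 20000 R. The change of Hsp26 at 20000 R (-1.29 ± 0.46, adjusted p = 0.0334) missed the threshold when any 1 of the 6 libraries compared was left out (adjusted p = 0.0544 to 0.117). At 10000 R, leaving out library c of day 10 gave -2.25 for Hsp27 (adjusted p = 8.07e-05) and -1.41 for Hsp26 (adjusted p = 0.00295), where all libraries gave -1.26 (adjusted p = 0.0566) and -0.40 (adjusted p = 0.626).

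Whether the difference from control was the same on the 3 days was tested with an F test per gene. It was not the same for 2 of 7 members at 20000 R, Hsp23 (adjusted p = 0.000408) and Hsp27 (adjusted p = 0.00611), beside 13.8% of all genes, and for 1 of 7 at 10000 R, Hsp23 (adjusted p = 0.000187), beside 14.1%. Hsp27 at 10000 R stood at an adjusted p of 0.0549. It passed in edgeR (0.0324), without the 2 libraries high in Yp1 (0.000742), without the 9 (2.99e-06) and without 10000 R day 10 a, b or c alone (0.0457, 0.0287 and 0.00162). Hsp26 missed the threshold at both doses (adjusted p = 0.421 and 0.261) and passed it without the 2 libraries high in Yp1 (adjusted p = 0.0372 and 0.00427). At 5000 R, 0 of 7 members passed in limma or edgeR, 1 had an unadjusted p under 0.05, and 0.0561% of all genes passed.

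The highest doses were also compared with each other over days. At 10000 R against 5000 R, 4 of 7 members (Hsp23, Hsp26, Hsp27, Hsp67Ba) fell, beside 23.6% of all genes. The log2 changes were -2.38 ± 0.29 (SE) for Hsp27, -1.86 ± 0.27 for Hsp26, -1.68 ± 0.15 for Hsp23 and -0.78 ± 0.28 for Hsp67Ba, with adjusted p of 7.8e-09, 2.75e-07, 2.41e-12 and 0.0256 in limma. The change of Hsp67Ba missed the threshold without 5000 R day 2 c, 5000 R day 20 c, 10000 R day 2 b or 10000 R day 10 c (adjusted p = 0.0503 to 0.0725). It also missed it under quantile normalization (-0.23, adjusted p = 0.388) and without the 2 libraries high in Yp1 (-0.70, adjusted p = 0.062). At 20000 R against 10000 R, 0 of 7 members passed in limma, edgeR or DESeq2, 0 had an unadjusted p under 0.05, and 1.51% of all genes passed.

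Hsp22 took the opposite direction, with higher values at later days and, at day 20, at the highest doses. In controls it had 1477, 970.5 and 718 normalized counts at day 2, 2904, 2539 and 2071 at day 10 and 2962 and 3596 at day 20. At 20000 R it had 1305, 1227 and 1202 at day 2, 3584, 4018 and 3999 at day 10 and 7056, 6899 and 6925 at day 20. At 10000 R the day 20 libraries had 5613, 6588 and 6175. In controls and at 20000 R every library of day 10 exceeded every library of day 2, and at 10000 and 20000 R on day 20 every library exceeded both day 20 controls.

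With age, Hsp22 was the 1 member of 7 that rose in controls at day 10 against day 2 (log2 change 1.30 ± 0.24, SE, adjusted p = 0.000457 in limma), beside 1.74% of all genes. At day 20 against day 2 in controls it rose by 1.69 ± 0.27 (adjusted p = 2.81e-05), the 1 of 7 that rose beside 3.9% of all genes. Its log2 change between those days was 1.34 at 10 R, 1.54 at 1000 R, 1.34 at 5000 R, 2.27 at 10000 R and 2.48 at 20000 R. Averaged over the 6 doses it was 1.13 ± 0.10 at day 10 against day 2 (adjusted p = 1.4e-12), 1.78 ± 0.10 at day 20 against day 2 (adjusted p = 2.86e-18) and 0.65 ± 0.10 at day 20 against day 10 (adjusted p = 0.000124). In each of these averages Hsp22 was the 1 of 7 members that rose, beside 20.3%, 20.6% and 0.97% of all genes.

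With dose, Hsp22 was higher than in controls by 1.09 ± 0.27 (log2, SE; adjusted p = 0.0018 in limma) at 20000 R and by 0.91 ± 0.27 (adjusted p = 0.0112) at 10000 R on day 20. The 10000 R value was 0.77 without control day 20 a, which leaves 1 control library on that day. At day 10 the difference at 20000 R was 0.64 ± 0.24 (adjusted p = 0.0546), and it passed in the fit of day 10 libraries alone (adjusted p = 0.0128) and without the 9 libraries (0.69, adjusted p = 0.00744). At day 2 it was 0.30 ± 0.24 (adjusted p = 1). The F test found no difference of the dose effect between days at 20000 R (adjusted p = 0.421) or 10000 R (adjusted p = 0.693), and over days the effect was 0.68 ± 0.15 (adjusted p = 0.000254) and 0.55 ± 0.15 (adjusted p = 0.00326). CG4456, whose exons hold those of Hsp22, gave the same value at 20000 R, 0.68 ± 0.15. The reads of these genes cannot be told apart, so this is no separate result.

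**Figure D3:**
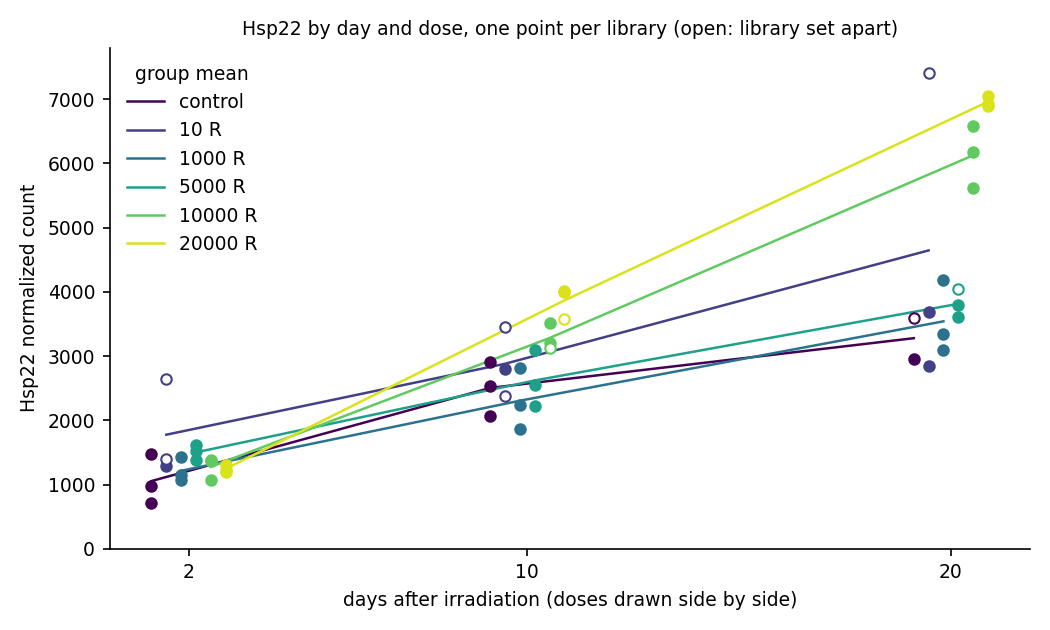
Hsp22 normalized counts against days after irradiation, one point per library, coloured by dose, with lines joining group means and open points for the 9 libraries set apart. All groups are higher at later days, the day 20 libraries of 10000 and 20000 R stand at 5613 to 7056, and the lone open point at 7408 is 10 R day 20 c.

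Some other members were lower at later days when the doses were averaged, at day 10 in a count close to the share of all genes. In that average, 2 of 7 members fell at day 10 against day 2 (Hsp23, -0.85 ± 0.11, SE, adjusted p = 1.11e-08; Hsp67Ba, -0.73 ± 0.20, adjusted p = 0.00308), beside 25.4% of all genes in limma. At day 20 against day 2, 3 of 7 fell (Hsp23, Hsp27, Hsp67Ba), beside 30.3%. Hsp26 at day 10 (-0.01) and l(2)efl at day 20 (0.22) were among those that did not pass. Without the 9 libraries, some of the groups averaged hold 1 library. In that fit the log2 change at day 10 was -0.30 for Hsp26, -0.79 for Hsp27 and -0.50 for Hsp67Bc. At day 20 it was -0.46 for Hsp26 and -0.57 for Hsp67Bc. With all libraries Hsp27 stood at -0.43 ± 0.21 (adjusted p = 0.0839) at day 10. It passed without the 2 libraries high in Yp1 (-0.67, adjusted p = 0.000601) and without 10 R day 10 a, 10000 R day 10 c or 20000 R day 10 a alone (adjusted p = 0.042, 0.00306 and 0.0264). In controls alone the log2 changes at day 20 against day 2 were -0.28 ± 0.29 for Hsp23, -0.20 ± 0.56 for Hsp27 and -0.02 ± 0.52 for Hsp26, with adjusted p of 0.589 to 0.984. The 1 member of 7 that fell in controls was Hsp67Ba (-2.92 ± 0.55, adjusted p = 0.000309), beside 4.28% of all genes. Its value was -0.84 without control day 20 b, which leaves 1 control library on that day.

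Hsp67Ba and Hsp67Bc, the low members of the cluster, turned on that control library at day 20. On that day Hsp67Ba had 185 normalized counts in control a and 9.5 in control b, 196, 249 and 455 at 5000 R, 117, 132 and 102 at 10000 R and 132, 134 and 110.3 at 20000 R. Hsp67Bc had 18.8 in control a and 0.95, which is 1 read, in control b, 46.1, 65.1 and 38.3 at 10000 R and 59.7, 46.2 and 21.8 at 20000 R. For Hsp67Ba the 10000 and 20000 R libraries all lay below control a and above control b. In control b 11847 genes had a value above 0, against 13396 in control a, and the part of this in its low values was not tested. In limma Hsp67Ba rose at 20000 R (1.51 ± 0.55, SE, adjusted p = 0.0414) and at 5000 R (2.67 ± 0.55, adjusted p = 0.02), and Hsp67Bc rose at 20000 R (2.69 ± 0.87, adjusted p = 0.0191) and at 10000 R (3.00 ± 0.87, adjusted p = 0.00854). Without control b, which leaves 1 control library, the Hsp67Ba values were -0.56 and 0.60, and the Hsp67Bc values 1.02 and 1.32. The calls were lost without 20000 R day 20 a, b or c for Hsp67Ba at 20000 R (adjusted p = 0.0613 to 0.0973), without 5000 R day 20 b or c for Hsp67Ba at 5000 R (0.0645 and 0.115) and without 20000 R day 20 a or b for Hsp67Bc at 20000 R (0.0752 and 0.0564). Hsp67Ba at 5000 R missed the threshold in edgeR (1.71, adjusted p = 0.327), DESeq2 (1.64, adjusted p = 0.106), under quantile normalization (1.83, adjusted p = 0.18) and with day 20 libraries alone (adjusted p = 0.425). At 20000 R it missed it in edgeR (0.40, adjusted p = 0.672), DESeq2 (0.38, adjusted p = 0.658) and with day 20 libraries alone (adjusted p = 0.213). Hsp67Bc at 20000 R missed it in edgeR (2.13, adjusted p = 0.0718).

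Away from that library Hsp67Ba was lower at the high doses. At day 10 it had 212, 138 and 139 normalized counts at 20000 R and 156, 139 and 87.2 at 10000 R, against 242, 245 and 253 in controls, with no overlap. The log2 fold changes of -0.63 ± 0.49 and -0.99 ± 0.49 (SE) did not pass in limma (adjusted p = 0.464 and 0.17). They passed without the 9 libraries (-0.83, adjusted p = 0.00885, at 20000 R; -0.74, adjusted p = 0.02, at 10000 R). Over days, the values were 0.23 ± 0.29 (adjusted p = 0.617) at 20000 R and 0.02 ± 0.29 (adjusted p = 0.978) at 10000 R with all libraries. Without the 9, which leaves 1 control library at day 20, they were -0.53 and -0.59.

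l(2)efl did not pass in limma in any dose or age comparison reported here with all libraries. Its highest group mean was 3494 ± 1404 normalized counts (SD, n = 3) at 5000 R on day 20, with libraries at 1877, 4400 and 4207, against 1849 and 1885 in controls. At day 10 the 5000 R libraries had 1491, 2785 and 4306, against 1395, 1689 and 1828 in controls. In both groups library a lay close to the controls and the other libraries lay above them. Over days the difference at 5000 R was 0.63 ± 0.21 (log2, SE; adjusted p = 0.0658 in limma), with a 95% interval of 0.22 to 1.05. It passed in DESeq2 (0.71, adjusted p = 0.0127) and when 5000 R day 2 a, day 10 a or day 20 a was left out (adjusted p = 0.0289, 0.0116 and 0.0119). At day 20 against day 2 over doses its change of 0.22 ± 0.14 (adjusted p = 0.2 in limma) passed under quantile normalization (0.34, adjusted p = 0.0398) and in edgeR (0.34, adjusted p = 0.0473). Library a, the first column of its group, held the lowest l(2)efl value in 17 of the 18 groups, and for Hsp27 it held the highest in 14 of 18. Whether columns in the same position share a batch is not given in the sources used here, and the fits hold no term for it. Its spread within groups was a residual SD of 0.43 on the log2 scale, and 0.44 without the 9 libraries, where the other members had 0.18 to 0.52.

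**Figure D4:**
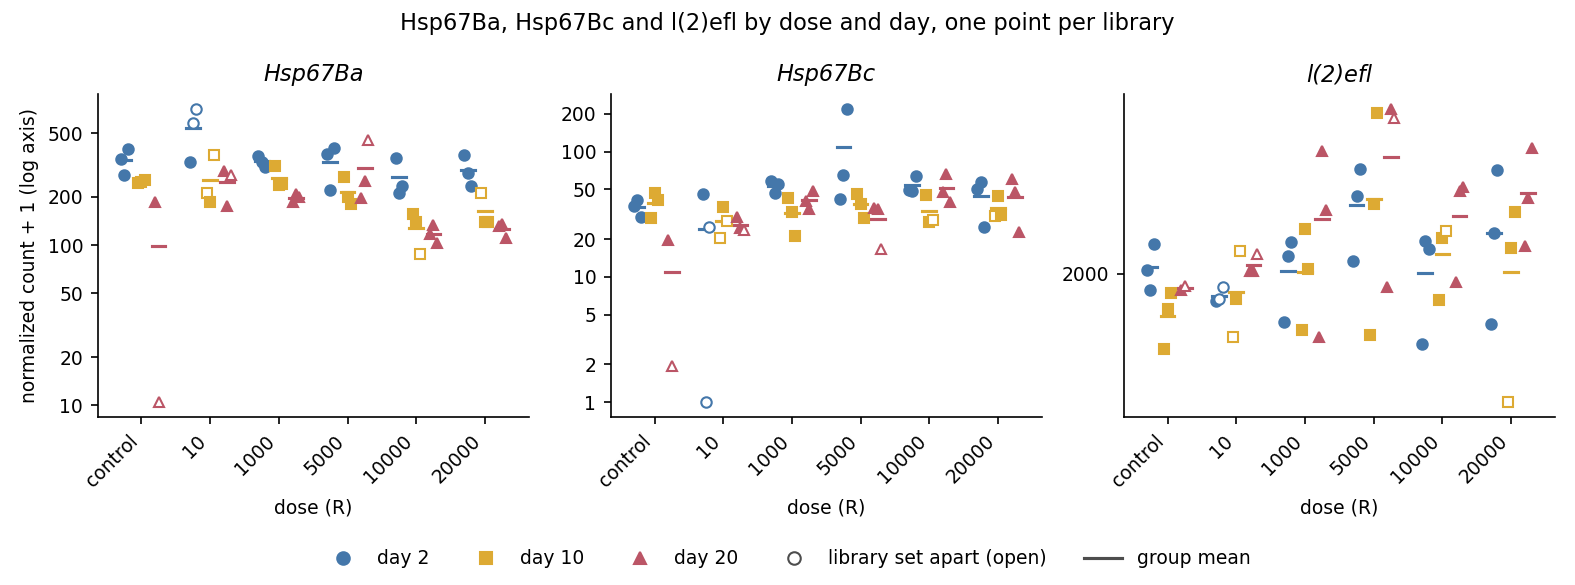
Normalized counts (plus 1, log axis) of Hsp67Ba, Hsp67Bc and l(2)efl against dose in roentgen, one point per library, coloured by day, with group means as bars and open points for the 9 libraries set apart. Control day 20 b is the lone open point at 9.5 for Hsp67Ba and at 0.95 for Hsp67Bc before adding 1, and l(2)efl spreads from 1084 to 4400 with groups that overlap.

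Low doses gave few calls among the members, while many of all genes passed at 10 R on day 2. At 5000 R over days 0 of 7 members passed in limma or edgeR and 1 in DESeq2, 4 had an unadjusted p under 0.05, and 4.55% of all genes passed. At 5000 R on day 10, 0 of 7 passed in all of these tools, with 0 at an unadjusted p under 0.05 and 0.016% of all genes, and on day 20 the 1 of 7 that rose in limma was Hsp67Ba, beside 0.433%, and 0 of 7 passed in edgeR or DESeq2. At 1000 R, 0 of 7 members passed in limma, edgeR or DESeq2 on any day or over days, with 0, 0, 2 and 2 at an unadjusted p under 0.05 on days 2, 10 and 20 and over days. Of all genes, 0%, 0%, 0.016% and 0% passed in those comparisons, with 48, 37, 665 and 242 genes at an unadjusted p under 0.05.

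At 10 R the one single-day call was a rise of Hsp22 on day 2, 1 of 7 members, beside 15.4% of all genes that rose there. A further 32% of all genes fell, so that 47.5% passed, a larger share than in any other comparison with control. Of the 3 libraries of 10 R on day 2, 2 are among the 9. Hsp22 had 1288, 2640 and 1401 normalized counts, against 1477, 970.5 and 718 in controls, which overlap. The log2 fold change was 0.74 ± 0.24 (SE; adjusted p = 0.0132 in limma), and it did not pass without 10 R day 2 b (0.41, adjusted p = 0.252) or without control day 2 c (0.49, adjusted p = 0.123). Without the 9 libraries, which leaves 1 library of 10 R on day 2, it was 0.35. Hsp26 (0.75 ± 0.46, adjusted p = 0.177) passed with the day 2 libraries alone (adjusted p = 0.0299) and without the 2 libraries high in Yp1 (adjusted p = 0.031). Hsp23 (0.52 ± 0.26, adjusted p = 0.0929) passed with the day 2 libraries alone (adjusted p = 0.0299). Hsp67Bc lay lower than in controls (-1.76 ± 0.77, adjusted p = 0.0582 in limma), with 0 reads in 10 R day 2 b. It passed as a fall with a pseudocount of 0.1 (adjusted p = 0.031) and without 10 R day 2 a (adjusted p = 0.00201) or c (adjusted p = 0.028). At days 10 and 20, 0 of 7 members passed in limma, edgeR or DESeq2, with 0 and 2 at an unadjusted p under 0.05, beside 0% and 0.016% of all genes. Over days 2 of 7 rose, Hsp22 (0.44 ± 0.15, adjusted p = 0.0422) and Hsp67Ba (1.01 ± 0.29, adjusted p = 0.0353), beside 3.74% of all genes. Without the 9 libraries, when some of these groups keep 1 library, the values were 0.22 and -0.05. Both calls were lost without control day 2 b or c, control day 10 b or c, 10 R day 2 b or c, 10 R day 10 c or 10 R day 20 c (adjusted p up to 0.145 for Hsp22 and 0.109 for Hsp67Ba). With 1 control library left at day 20, Hsp22 stood at 0.39 (without a) and Hsp67Ba at 0.32 (without b). Hsp26 and Hsp27 were highest of all their groups at 10 R on day 2, at 3024 ± 317 and 4606 ± 1207 (SD, n = 3), where 2 of the 3 libraries are among the 9, and Hsp23 was highest there too, at 1124 ± 110 (SD, n = 3). The spermatocyte and spermatid marker sum was 151717 to 167044 in those libraries, against 124131 to 127289 in controls. Its part in these levels was not tested.

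Across the 18 group means the members fell into patterns, given here as descriptions over groups that share libraries of one study. Hsp26 and Hsp27 had a Pearson r of 0.98, Hsp23 and Hsp27 of 0.91 and Hsp23 and Hsp26 of 0.86, while Hsp22 had an r of -0.66 with Hsp23 and -0.50 with Hsp27. Within groups, the deviations of single libraries from their group mean gave r = 0.75 for Hsp26 and Hsp27 over 53 libraries but 0.15 over the 44 libraries without the 9. For Hsp23 and l(2)efl the deviations gave r = 0.58 over 53 and 0.61 over 44 libraries, and for Hsp27 and l(2)efl r = -0.31 and -0.64. Library a held the lowest value in 13 of 18 groups for Hsp23 and in 17 of 18 for l(2)efl, and the highest in 14 of 18 for Hsp27. The part of column position in these r values was not tested. Among 10383 genes with a mean of at least 50, the gene whose 18 group means were most like Hsp26 was Hsp68 (r = 0.967), which encodes an inducible relative of Hsp70. Those most like Hsp27 were RpL37-2 (r = 0.985), Inx6 and tomb, and those most like Hsp23 were CG10063 (r = 0.989), CG33293 and CG9855. Those most like Hsp22 after CG4456 were Gs1 (r = 0.958), a glutamine synthetase, and CG5577. Hsp67Ba was most like pb (r = 0.946), s-cup and dachs. Hsp67Bc was most like euc (r = 0.919), intr and CG6962, and l(2)efl was most like sqh (r = 0.869), CG4269 and Thor. Without the 9 libraries these lists changed. The closest gene was achi (r = 0.981) for Hsp26, with Hsp68 next (r = 0.978), tum (r = 0.993) for Hsp27 and Roe1 (r = 0.989) for Hsp23. It was Iml1 (r = 0.969) after CG4456 for Hsp22, CG31808 (r = 0.974) for Hsp67Ba, CG15890 (r = 0.841) for Hsp67Bc and bero (r = 0.939) for l(2)efl. Apart from CG4456 and Hsp68, no gene was among the first 3 both with and without the 9.

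At days 10 and 20 after 10000 and 20000 R, the low levels of Hsp23, Hsp26 and Hsp27 came with low levels of male germ cell markers. All 19 markers tested fell at 10000 R on day 10 and 17 of 19 at 20000 R on days 10 and 20, with a median log2 fold change of -7.17 at 20000 R on day 20. The markers Mst98Ca, Mst87F and S-Lap8 changed by -4.73, -4.58 and -4.95 on the log2 scale at 20000 R over days. At day 2, the libraries of 10000 and 20000 R had marker sums of 105439 to 127801, close to the 124131 to 127289 of controls, and Hsp23 stayed near its controls there, while Hsp26 and Hsp27 lay below every control in all of them. The sum is weighted to abundant markers such as S-Lap8 (mean 15911) and Mst98Ca (14852), against 89.7 for aly and 21.6 for comr. It does not measure germ cells before the spermatocyte stage. Summed levels at 5000 R were 115090 to 182158 on day 2 and 79583 to 99582 on day 10. The part of these transcripts in the falls of the 3 genes was not tested. Of 11 ovary and yolk markers tested, 1 fell and 0 rose at 20000 R over days, orb (-3.22), which encodes an RNA-binding protein of the germ line.

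**Figure D5:**
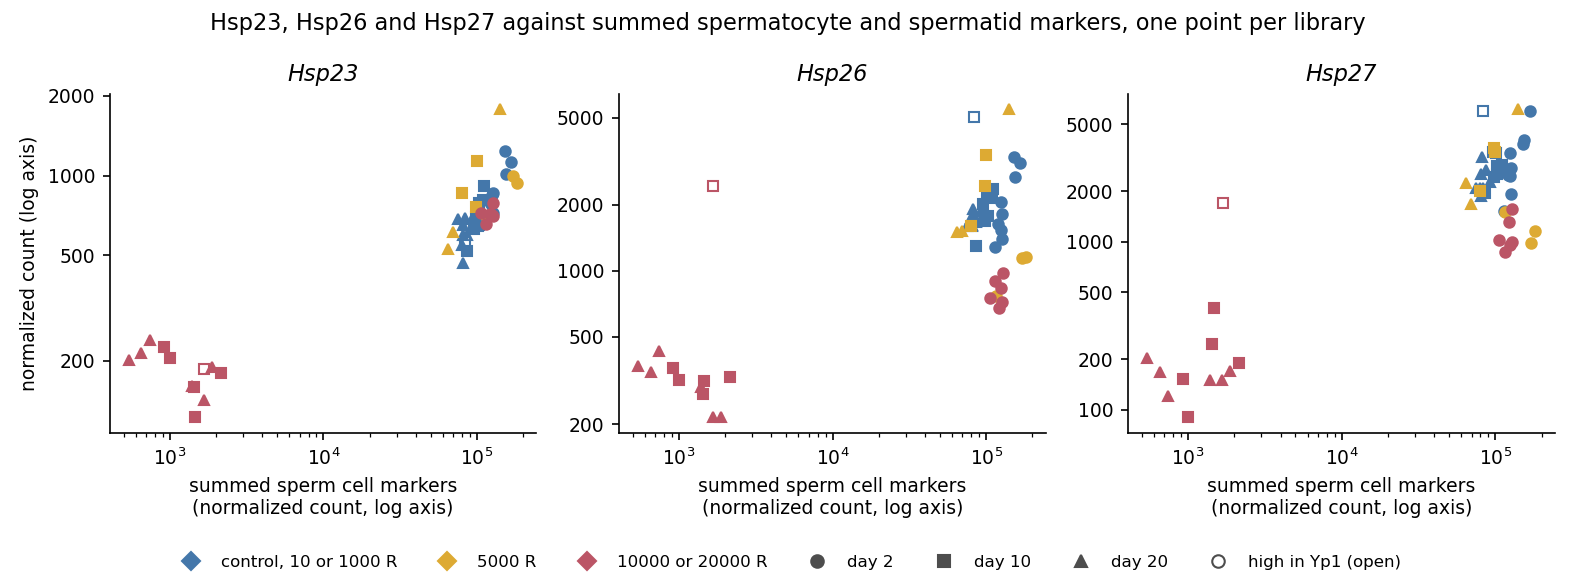
Normalized counts of Hsp23, Hsp26 and Hsp27 (log axis) against the sum of 20 spermatocyte and spermatid markers (log axis), one point per library, coloured by dose class and shaped by day, with the 2 libraries high in Yp1 open. The day 10 and 20 libraries of 10000 and 20000 R lie at marker sums of 543 to 2145, and at marker sums like those of controls the day 2 libraries of these doses are lower than controls for Hsp26 and Hsp27. The sum does not measure germ cells before the spermatocyte stage.

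Other chaperone genes were counted from lists of heat shock genes. Of 19 large heat shock proteins tested, 8 fell and 0 rose at 20000 R over days (median -0.11), and 0 rose in the same comparison at 10000 R, where 8 fell. Of all genes tested, 20.7% fell and 7.72% rose at 20000 R and 21.2% fell and 6.42% rose at 10000 R over days, the shares against which the counts of these lists are to be read. The 8 that fell at 20000 R include the Hsp60 paralogs Hsp60B (-4.74 ± 0.15, SE), Hsp60C (-5.10 ± 0.16) and Hsp60D (-4.31 ± 0.18). They also include the Hsp70 relatives Hsc70-2 (-3.12 ± 0.13) and Hsp68 (-1.56 ± 0.13), and Trap1 (-0.46 ± 0.06), a mitochondrial Hsp90. At day 2 Hsp68 had 798 ± 161 normalized counts (SD, n = 3) at 20000 R and 860 ± 119 at 5000 R, against 1719 ± 166 in controls. It fell there (adjusted p = 0.00958 and 0.0371 in limma), the 1 of 19 that passed at each dose, beside 0.16% and 0.449% of all genes. Hsp68 was found most like Hsp26 over group means that include day 2, so their likeness on that day is no separate result. The 6 near-identical Hsp70 genes, whose reads the counting may have split between copies and which are named here after their values were seen, differed from controls by 0.06 to 0.36 at 20000 R over days and none passed. Of 5 other genes of the 67B locus or the alpha-crystallin family, 1 rose at 20000 R over days, CG4456, and 4 did not pass. The reads of CG4456 cannot be told apart from those of Hsp22, so its rise is no separate result. Of 9 co-chaperones 4 fell, DnaJ-1 (-0.38 ± 0.09), Droj2 (-0.34 ± 0.11), mrj (-1.05 ± 0.24) and Cdc37 (-0.49 ± 0.09), and of 9 regulators of these genes 0 passed in limma. Among those regulators Hsf, chosen here after its value was seen, differed from controls by 0.03 ± 0.10 (adjusted p = 0.846).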

How the data were processed

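Whole-body mRNA of irradiated and control males was sequenced after Illumina TruSeq preparation, per the labels' protocols. TopHat2 2.0, DESeq and genome build dm3 are named in the submitters' processing notes; the program that counted reads was not given in the sources used here, nor was its gene annotation. The deposited values are a signal, read counts that the authors divided by one size factor per library, and dividing by the value of 1 read gave whole reads (within 0.1) for 100.0% of values in every library. Symbols from the reference annotation matched 14347 identifiers (94.3%), and that annotation, of another build, served only for names, lengths and neighbours.

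Genes with a mean of at least 10 (12475 genes) were tested as log2(value + 1) with limma 3.58.1 in R 4.3.3, in one fit of all 18 groups with Benjamini-Hochberg adjustment per comparison, and the code was tested on simulated data. This scale understates changes of low genes. Alternatives were pseudocounts of 0.1 and 10, no filter and a minimum of 50, quantile normalization, edgeR 4.0.16 and DESeq2 1.42.0 on recovered reads, libraries of one day alone, each library left out, and leaving out the 9 libraries set apart or the 2 high in Yp1. Plots used matplotlib 3.10.9.

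The 7 members and the lists were chosen with earlier results of these data known. Of the lists, genes are named that passed at 20000 R over days, at most 6 per list by smallest p; as genes like a member, the 3 with the highest r over the 18 group means and a mean of at least 50.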

Additional observations from a re-analysis of the deposited data

Results flagged for a closer look

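The effect of dose differed between days for Hsp23 at 10000 R (F test in limma, adjusted p = 0.000187) and at 20000 R (adjusted p = 0.000408). At 20000 R the log2 fold change of Hsp23 was -0.08 at day 2, -1.89 at day 10 and -1.56 at day 20, and at 10000 R it was -0.17, -1.92 and -1.97. The effect of dose also differed between days for Hsp27 at 20000 R (adjusted p = 0.00611), where the log2 fold change was -1.28 at day 2, -3.95 at day 10 and -3.94 at day 20. The cause of these differences was not tested.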

How the results depend on the processing

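Over days, the falls of Hsp23, Hsp26 and Hsp27 and the rise of Hsp22 at 10000 and 20000 R passed under every alternative run and with each library left out. At 20000 R their log2 fold changes over the alternatives ran from -1.18 to -0.96, from -1.96 to -1.77, from -3.29 to -2.75 and from 0.65 to 0.77. The number of the 7 members that passed was 4 to 5 over the alternatives at both doses and 4 to 6 with 1 library left out. Hsp67Ba turned in direction with control day 20 b or the 9 libraries. At 20000 R on day 20 it was -0.56 without either, at 20000 R over days -0.53 without the 9, at 10000 R over days -0.59 without the 9 and -0.67 without control day 20 b, and at 10 R over days -0.047 without the 9; the cause was not tested. With 1 library left out it ran from -0.56 to 3.59 at 20000 R on day 20 and from -0.67 to 0.71 at 10000 R over days. The change of Hsp23 between days at 10000 R missed the threshold under quantile normalization (adjusted p = 0.0676), which moved the median of all genes to 0.26 at 10000 R and 0.27 at 20000 R over days, against 0.06 and 0.08. A minimum mean of 50 left no value for Hsp67Bc. No paired analysis was possible because the table's columns carry no replicate numbers. Low counts limit Hsp67Bc, which had 0 reads in 10 R day 2 b and 1 in control day 20 b, libraries of 23.5 M and 25.8 M reads. In these libraries 11528 and 11847 genes had a value above 0, against 13489 and 11213 in 10 R day 2 a and c and 13396 in control day 20 a. The part of this in the low counts was not tested.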
